A study of Mus musculus with 212 samples.

Results

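Single cells taken from mouse embryos at E10.5 were split into those in which Actn2 was not detected and those in which it was, and the other assays were compared between these groups. The members were chosen by the Actn2 reading alone: a quantification cycle (Ct) of 25, the value that stands for no signal, against any lower Ct. Of the 72 cells of the E10.5 set, 12 had no Actn2 and 60 had it, in a series of 212 samples. The cells without Actn2 were 16.7% of the set (exact Clopper-Pearson 95% interval 8.92 to 27.3%, counting error only), a share that the sort can set, since its gate is not given. Each cell was assayed for 33 genes with 42 TaqMan assays by microfluidic quantitative PCR. Values are given as 25 minus Ct, in cycles: 0 means not detected, and each added cycle is a doubling of template if the PCR runs at full efficiency.

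The labels give these cells as cardiac cells of mouse embryos and name neither a strain, a genotype, a treatment, an animal nor the part of the heart. Both groups therefore come from 1 set of cells with the same description, and cells of 1 set are not replicates, so no p-value was computed. Each ± is an SD between cells.

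Actn2 encodes alpha-actinin of striated muscle, which anchors actin filaments at the Z disc of the sarcomere, and is a usual marker of cardiomyocytes. The heart of this stage also holds endocardium, the endothelial lining of the chambers, the mesenchyme of the endocardial cushions, which arises from that lining, and the epicardium. Endocardial cells carry vascular genes such as Cdh5, Pecam1 and Kdr, and mesenchymal cells carry intermediate filament and matrix genes such as Vim and Fn1, often with the receptor Pdgfra. The panel held no specific marker of epicardium or blood.

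The Actn2 readings that made the split fell into 3 ranges. Undetected cells read 0. The cells just outside that limit read 1.12 (cell E10.5-4), 3.45 (E10.5-13), 4.73 (E10.5-11), 5.79 (E10.5-18) and 5.81 (E10.5-20). The other 55 cells ran from 8.65 to 12.21 with a median of 10.497. The widest step among detecting cells, 2.84 cycles, lay between these 5 cells and the 55, and the names weak and strong Actn2 are used for them below, a division made after the values were seen. All 5 weak cells and 9 of the 12 cells without Actn2 stand in the first 36 columns of the table, where Actb of the cells with Actn2 averaged 8.92 ± 1.25 (n = 27) against 6.81 ± 1.52 (n = 33) in the last 36. Whether the order of the columns follows a chip or an embryo is not given in the sources used here.

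**Figure D1:**
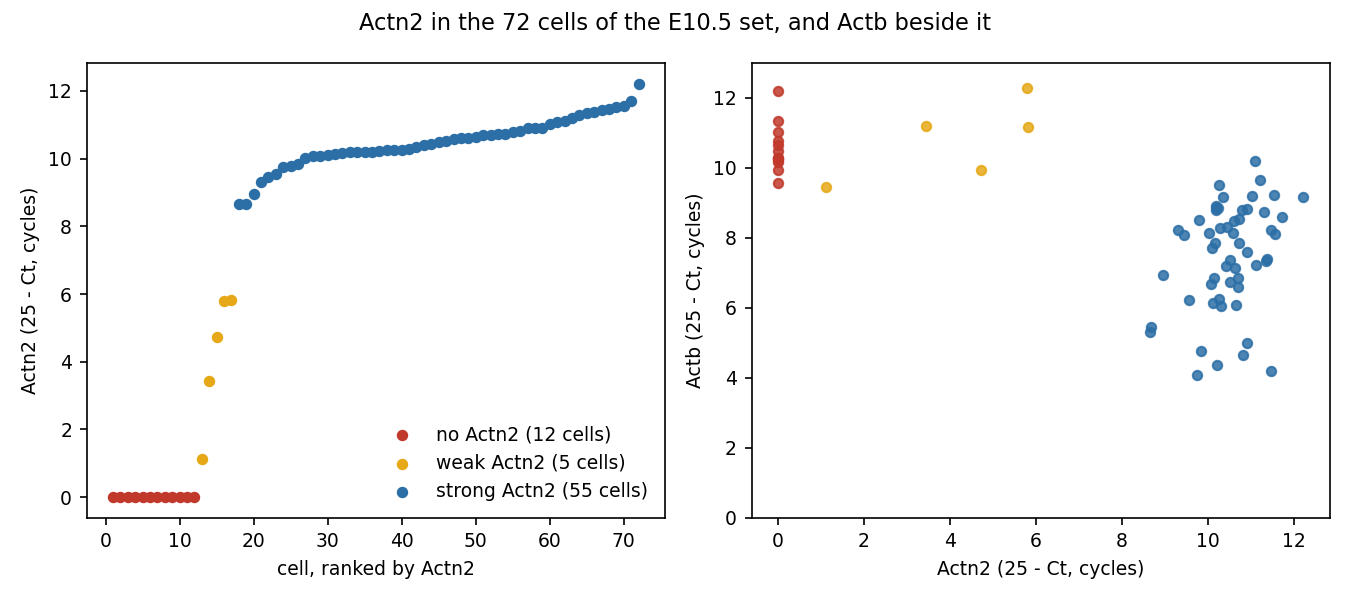
Left, Actn2 (25 minus Ct, cycles) in the 72 cells in rank order. Right, Actb against Actn2 in the same cells, each point a cell. In Actn2 the 12 cells without it (red) and the 5 with weak Actn2 (orange) lie apart from the 55 with strong Actn2 (blue). Actb of the red and orange cells, 9.45 to 12.27 cycles, overlaps that of the blue cells, 4.08 to 10.19.

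The cells without Actn2 lacked the contractile and Nkx2-5 signal of their neighbours or had it at a much lower level. Most of them carried endothelial genes, Pdgfra, or both, at a high level. As deposited, they had more Fn1 and Vim. Relative to Actb the Fn1 difference was 2.25 and that of Vim turned to -0.33. Of the 41 assays other than Actn2, 9 averaged at least 1 cycle higher in the cells without Actn2 (22%) and 20 at least 1 cycle lower (48.8%), while 12 lay within 1 cycle. Relative to each cell's Actb, where Actb itself drops out and 40 assays remain, these counts were 7 and 25, a shift of the median assay by -2.56 cycles. Relative to each cell's median detected assay they were 14 and 17, a shift of 0.37. On both scales an undetected reading took the lowest rescaled value of any assay and cell. Differences on these scales therefore also carry the share of undetected cells. The share of detecting cells was at least 50 percentage points higher for 2 assays (4.88%), Cdh5 and Pecam1, and at least 50 points lower for 12 (29.3%). Cells without Actn2 detected fewer assays of this panel, 13 to 23 with a median of 18.5, against 17 to 32 with a median of 27 in cells with Actn2.

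**Figure D2:**
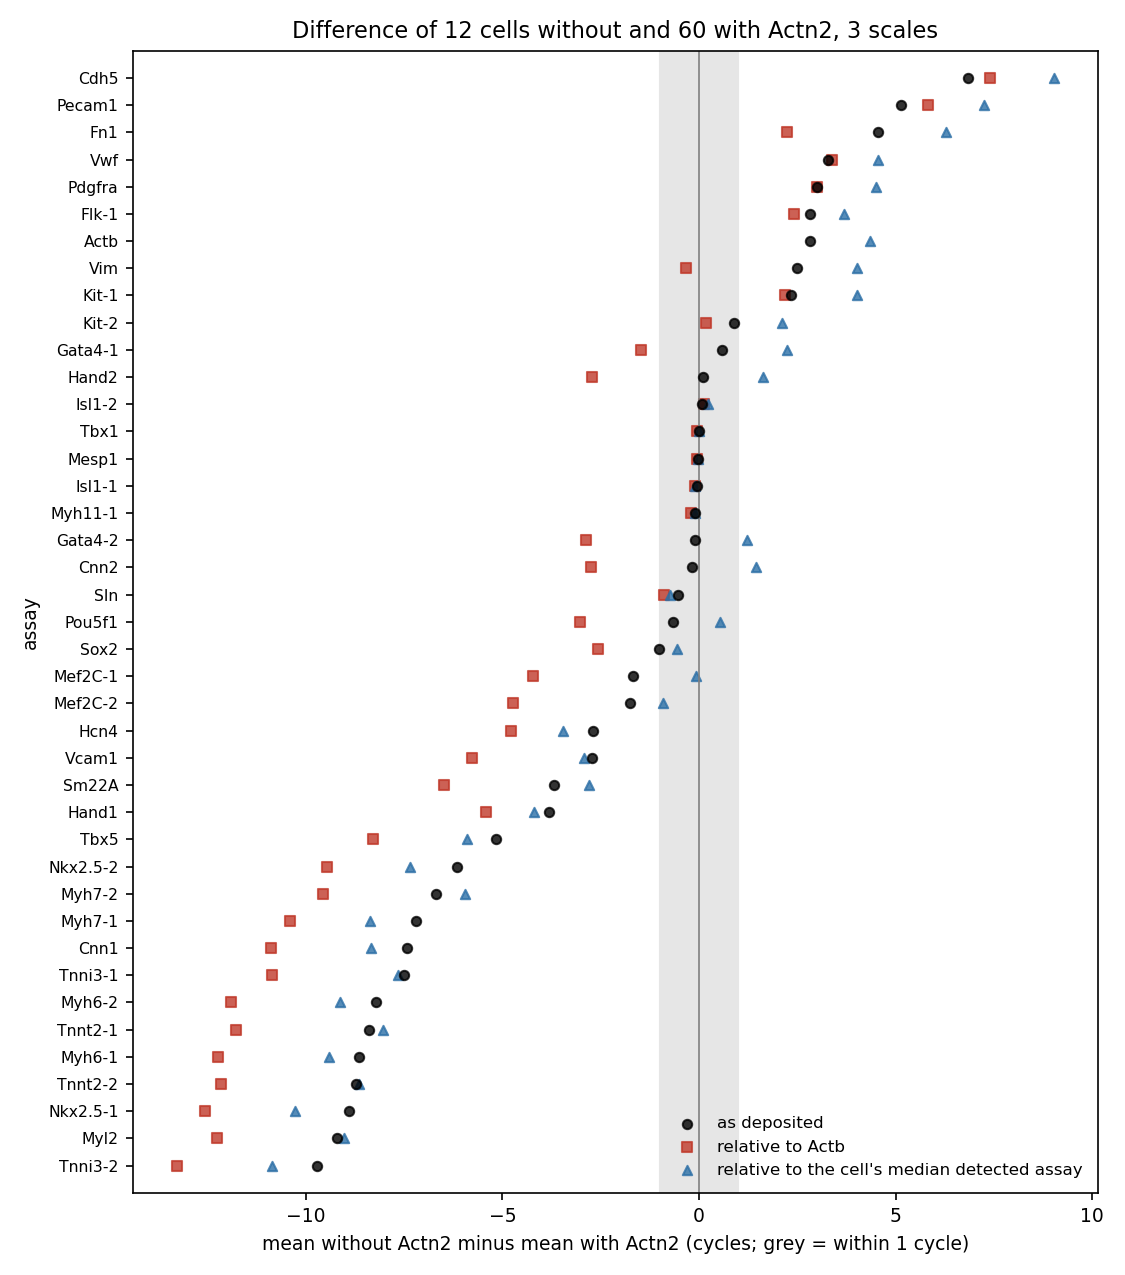
Difference of means (cycles, cells without Actn2 minus cells with Actn2) for each of 41 assays, as deposited, relative to Actb and relative to the cell's median detected assay. Cdh5 at 6.84 is the highest and Tnni3-2 at -9.72 the lowest as deposited, and Vim is the assay among those at least 1 cycle higher whose sign turns, to -0.33 relative to Actb.

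The contractile assays set the 2 groups furthest apart. Of the 10 assays of the cardiomyocyte list other than Actn2, 9 were at least 1 cycle lower and 0 higher in cells without Actn2. Of all 41 assays, 48.8% were lower and 22% higher. The median difference of the list was -8.31 cycles against -0.65 over all 41 assays. Sln, the calcium pump regulator of atrial muscle, lay within 1 cycle because 5 of the 60 cells with Actn2 and 0 of the 12 without it detected it. Added up over these 10 assays, the readings of a cell came to 0 to 33.4 cycles without Actn2 (median 13.5) and to 13.5 to 112.0 with it (median 94.8). Cells E10.5-54 and E10.5-61 detected none of the 10. The other 10 cells detected 1 to 7 of them, none above 7.76 cycles.

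Cardiac troponin T, which ties tropomyosin to the thin filament, was, with Myh7-2, the contractile signal detected in most of the cells without Actn2. Tnnt2-1 ran from 0 through a median of 5.04 to 7.76 in the cells without Actn2, where 7 of 12 detected it, and from 6.15 through 12.49 to 14.18 in the cells with Actn2, where all 60 did. Tnnt2-2, the other assay of the gene, was detected in 6 of the same 7 cells, and ran to 7.13 against a range of 5.27 to 13.88. The ranges met only through weak cells: all 55 strong cells read at least 10.68 for Tnnt2-1 and 10.38 for Tnnt2-2. The difference of means was -8.40 for Tnnt2-1 (3.71 ± 3.36, n = 12, against 12.11 ± 1.63, n = 60) and -8.73 for Tnnt2-2.

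Troponin I, the inhibitory subunit of the same complex, was rarer. Tnni3-2 was detected in 1 of 12 cells without Actn2, at 5.54, and in 58 of 60 with it, at a median of 10.74 (means 0.46 ± 1.60 and 10.18 ± 2.49). Tnni3-1 was detected in 4 of 12, at 4.17 to 5.24, against 57 of 60 with a median of 9.75. Only cell E10.5-8 detected both assays among the 12, whereas 57 of the 60 did.

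The myosin assays were as low. Alpha myosin heavy chain, the fast cardiac motor, was detected by Myh6-1 in 2 of 12 cells without Actn2 (4.35 and 4.39) and by Myh6-2 in 2 (3.48 and 4.42), and both assays read together in 1 cell, E10.5-9. In cells with Actn2 these were detected in 56 and 57 of 60, with medians of 10.19 and 9.82. For Myh7, the slow heavy chain, the pair of assays did not read alike: Myh7-1 was at 0 in all 12 cells without Actn2 and detected in 50 of 60 with it, while Myh7-2 was detected in 7 of 12, at 3.93 to 5.84, and in 53 of 60 with a median of 10.76. Myl2, the regulatory light chain of ventricular muscle, read 3.62 to 4.89 in 5 of 12 cells without Actn2 and reached a median of 12.77 in cells with it, 54 of which detected it. Its mean was 1.75 ± 2.18 against 10.95 ± 4.39.

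**Figure D3:**
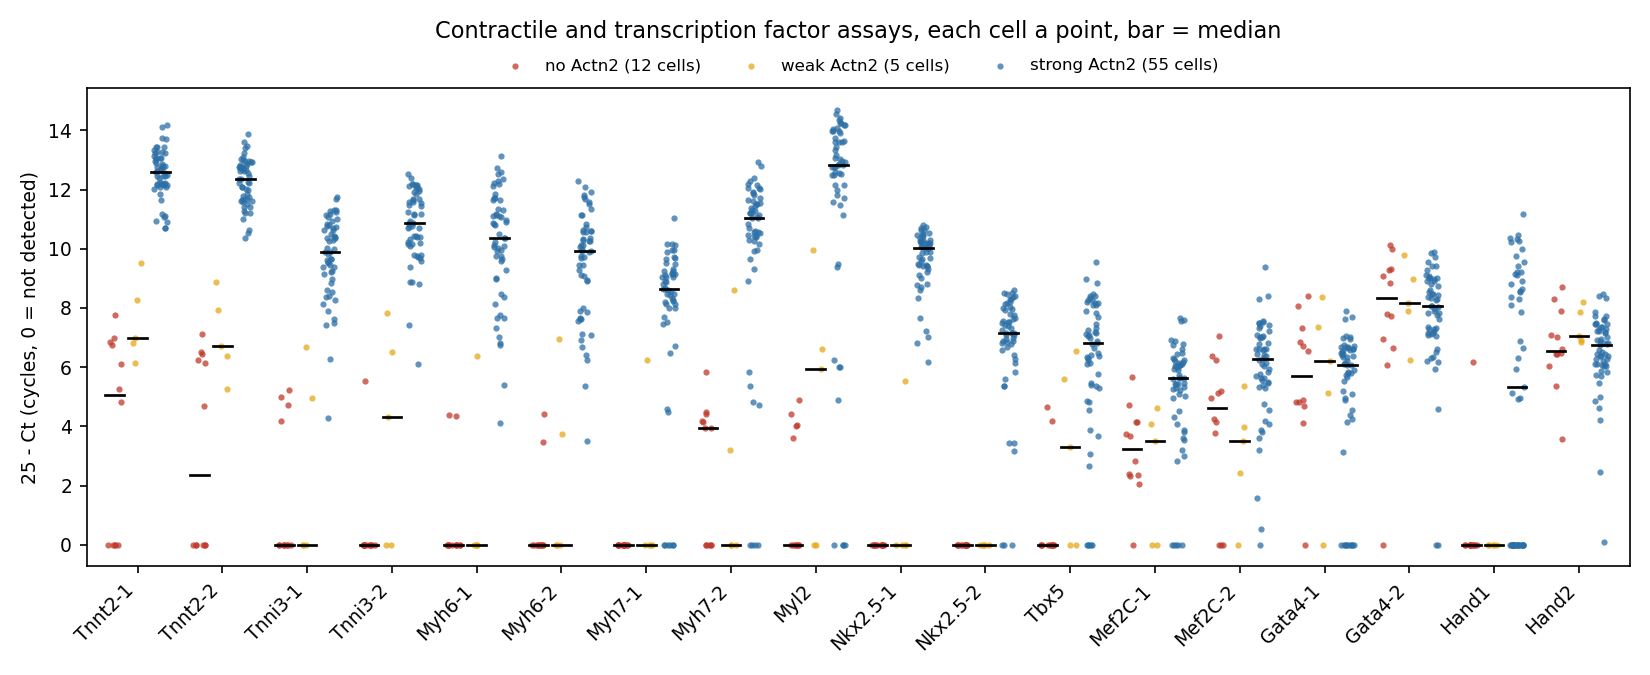
Contractile and transcription factor assays (25 minus Ct, cycles, 0 = not detected) in cells with no, weak and strong Actn2; each point is a cell and each bar a median. Tnnt2-1 reaches 7.76 in cells without Actn2 and starts at 10.68 in the strong cells, while Gata4-2 and Hand2 overlap in all 3.

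The transcription factors divided. Nkx2-5, a homeobox factor of cardiac muscle cells and their precursors, was not detected by either assay in any of the 12 cells without Actn2, which allows a share of up to 26.5%. Nkx2.5-1 was detected in 56 of 60 cells with Actn2, at a median of 9.86, and Nkx2.5-2 in 52, at a median of 7.14. All 16 cells of the table that lacked Nkx2.5-1 were cells without Actn2 (12) or with weak Actn2 (4). Tbx5, a T-box factor of atria, left ventricle and epicardium, was detected in 2 of 12 cells without Actn2 (4.19 and 4.66) against 53 of 60 with a median of 6.59. Hand1 was detected in 1 of 12, at 6.17, against 31 of 60.

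Gata4 and Hand2, which act in muscle as well as in endocardium and cushion mesenchyme, were present on both sides. Hand2 was detected in all 12 cells without Actn2, from 3.58 to 8.71 with a median of 6.54, and in all 60 with it, with a median of 6.82. The difference of means was 0.10 cycles as deposited, -2.72 relative to Actb and 1.63 relative to the median detected assay, so its direction depends on the scale. Gata4-2 was detected in 11 of 12 and 58 of 60 cells with medians of 8.33 and 8.05, and Gata4-1 in 11 of 12 and 49 of 60 with medians of 5.71 and 6.09. Their differences of -0.10 and 0.58 as deposited went to -2.87 and -1.48 relative to Actb and to 1.22 and 2.24 on the median detected assay. Mef2c, a factor of muscle and endothelial genes, was lower without Actn2, with means of 3.17 ± 1.49 against 4.84 ± 2.09 for Mef2C-1 and 3.92 ± 2.55 against 5.67 ± 1.94 for Mef2C-2. The differences of -1.67 and -1.75 went to -4.21 and -4.73 relative to Actb, and lay within 1 cycle, at -0.07 and -0.91, relative to the median detected assay.

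Of the 16 assays of cardiac transcription factors and progenitor genes, 3 were at least 1 cycle higher without Actn2 (Kit-1, Flk-1 and Pdgfra), 6 at least 1 cycle lower (both Nkx2.5 and both Mef2C assays, Tbx5 and Hand1) and 7 within 1 cycle, where 22% and 48.8% of all assays were higher and lower. The balance turned with the scale, at 3 higher and 9 lower relative to Actb and 7 higher and 4 lower relative to the median detected assay. Isl1, a factor of second heart field progenitors, was nearly absent: Isl1-1 was detected in 0 of 12 and 1 of 60 cells and Isl1-2 in 1 of 12 (2.75) and 2 of 60. Mesp1, a factor of the earliest cardiac mesoderm, and Tbx1, a factor of the pharyngeal region, were each detected in 0 of 12 and 1 of 60.

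All 4 endothelial assays were at least 1 cycle higher in cells without Actn2, where 22% of all 41 assays were. Their median difference was 4.22 cycles (4.597 relative to Actb and 5.90 on the median detected assay). The values in brackets also carry the share of undetected cells, whose readings took the lowest rescaled value. Cdh5, the cadherin of endothelial junctions, was detected in 9 of the 12 cells and ran from 0 through a median of 10.12 to 11.71. It was detected in 3 of 60 cells with Actn2, and the means were 7.20 ± 4.87 and 0.36 ± 1.67. Of those 3 cells, the weak cell E10.5-4 read 10.30, and the strong cells E10.5-6 and E10.5-29 read 5.17 and 6.26 and had neither Pecam1, Vwf nor Flk-1. In the 9 cells without Actn2, Cdh5 fell into a high set of 7, from 10.11 to 11.71, and 2 cells, E10.5-9 and E10.5-10, at 5.04 and 5.22.

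Pecam1, an adhesion molecule of endothelial cells, was detected in 9 of 12 cells without Actn2, at 4.92 to 8.73, and in 3 of 60 with it (means 5.39 ± 3.48 and 0.24 ± 1.05). Vwf, the clotting factor stored in endothelial cells, was detected in 6 of 12, at 4.43 to 10.01, and in 7 of 60. Flk-1, the assay of the VEGF receptor Kdr, was detected in 6 of 12, at 6.87 to 10.08, and all 6 also had Cdh5. In cells with Actn2 it was detected in 16 of 60, and 15 of these lacked Cdh5, with a highest value of 9.46. Together, Cdh5, Pecam1 and Vwf marked 6 of 12 cells without Actn2 and 1 of 60 with it, the weak cell E10.5-4.

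Kit, a receptor of stem cell factor found on several progenitor and endothelial cells, was higher by Kit-1: 8 of 12 cells without Actn2 detected it, at 2.27 to 7.76, against 13 of 60, with means of 3.18 ± 2.81 and 0.84 ± 1.73. Kit-2 was detected in 7 of 12 and 23 of 60 cells, a difference of 0.90 cycles. The assays read together in 5 of the 12. Over detecting cells alone, Kit-1 was at 4.77 cycles without Actn2, with a difference from cells with Actn2 of 0.91, so most of its difference lay in how many cells detected it.

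The 3 mesenchymal assays were all at least 1 cycle higher without Actn2, where 22% of all 41 assays were, with a median difference of 3.01 cycles. Fn1, fibronectin of the extracellular matrix, ran from 7.65 through a median of 10.25 to 12.16 in the 12 cells and from 0 through 5.84 to 10.95 in the 60, and 48 of the 60 lay below the lowest cell without Actn2. Its difference of means was 4.55 cycles (10.18 ± 1.35 against 5.63 ± 2.51), and 2.25 relative to Actb. Vim, an intermediate filament of mesenchymal and endothelial cells, was detected in every cell of both groups. It ran from 10.44 through 11.78 to 13.52 without Actn2 and from 7.20 through 9.39 to 12.59 with it, a difference of 2.49 that turned to -0.33 relative to Actb. Detection of Vim thus did not separate the groups, and its higher level came with a higher Actb. Among the 12 cells the highest Fn1 (12.16, E10.5-8) and the highest Vim (13.52, E10.5-26) were in cells with Cdh5 and no Pdgfra. Fn1 and Vim therefore do not tell mesenchyme from endothelium here.

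Pdgfra, a growth factor receptor of mesenchyme, was detected in 6 of 12 cells without Actn2, at 5.77 to 10.35, and in 11 of 60 with it, of which 4 were weak cells. In the 7 strong cells that detected it the highest value was 5.76. The means were 4.16 ± 4.47 and 1.15 ± 2.59. Counting the 5 weak cells, 4 of them with Pdgfra, with those without Actn2 raised the median difference of the mesenchymal list from 3.01 to 4.33. All 3 assays stayed at least 1 cycle higher. Relative to Actb 2 of the 3 did. Against the 6 cells with Actn2 that reached the lowest Actb of the 12, 0 of the 3 did.

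**Figure D4:**
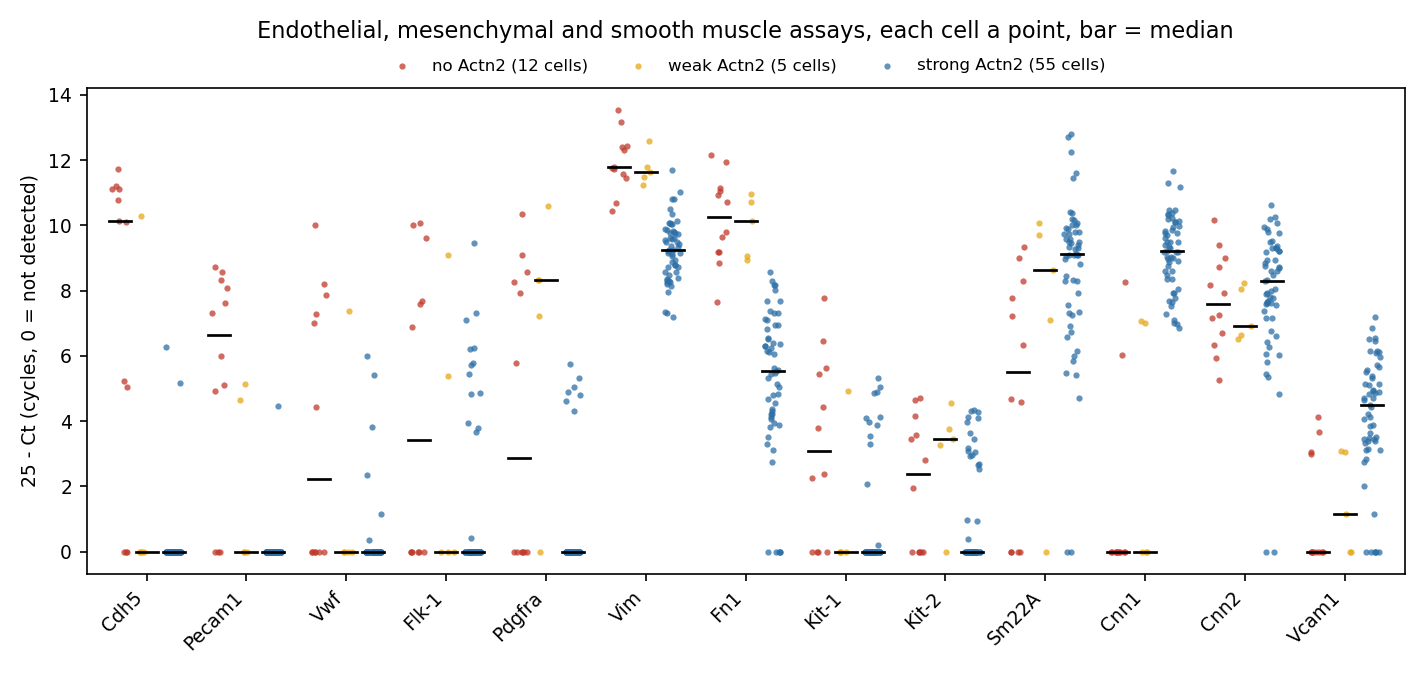
Endothelial, mesenchymal and smooth muscle assays (25 minus Ct, cycles, 0 = not detected) in cells with no, weak and strong Actn2; each point is a cell and each bar a median. Cdh5 and Pecam1 are detected in 9 of 12 cells without Actn2, and Cnn1 in 2 of 12 against all 55 strong cells.

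Among smooth muscle genes, Cnn1 and Sm22A averaged lower without Actn2 by 1 cycle or more and Myh11-1 lay within 1 cycle, for a median difference of -3.70 over the 3. Of all 41 assays 48.8% were lower, so with 3 members this count says little about the list. Cnn1, the calponin that binds actin in smooth muscle and in embryonic heart muscle, was detected in 2 of 12 cells without Actn2 (6.03 and 8.27) and in 57 of 60 with it, with means of 1.19 ± 2.82 and 8.62 ± 2.31. Sm22A, transgelin, was detected in 8 of 12, at 4.58 to 9.34, and in 57 of 60, with means of 4.77 ± 3.81 and 8.47 ± 2.60. In 6 of those 8 cells it came without Cnn1, a pattern found in 2 weak and 0 strong cells. Myh11, the myosin of mature smooth muscle, was at 0 in all 12 and detected in 2 of 60. Cnn2, a calponin of many cell types, was detected in all 12 and in 58 of 60, with means of 7.67 ± 1.49 and 7.84 ± 1.997, and its difference of -0.17 went to -2.76 relative to Actb and to 1.44 on the median detected assay.

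Vcam1, an adhesion molecule of embryonic myocardium, was lower without Actn2 (detected in 4 of 12 and 52 of 60 cells, means 1.15 ± 1.73 and 3.89 ± 2.02), as was Hcn4, the pacemaker channel (0 of 12 and 35 of 60, means 0 and 2.70 ± 2.48). Of the pluripotency genes, Pou5f1 was detected in 10 of 12 and 52 of 60 cells (means 3.09 ± 1.94 and 3.74 ± 2.09) and Sox2 in 4 of 12 and 30 of 60. Their differences were -0.65 and -1.03 as deposited, -3.02 and -2.56 relative to Actb, and 0.53 and -0.57 relative to the median detected assay. Actb, the cytoskeletal actin used as the housekeeping assay, ran from 9.57 through 10.39 to 12.21 without Actn2 and from 4.08 through 8.10 to 12.27 with it (means 10.58 ± 0.70 and 7.76 ± 1.75). Only 6 of the 60 cells with Actn2 reached the lowest Actb of the 12, and 4 of these 6 were weak cells. Against these 6 cells the median difference of the cardiomyocyte list was -4.65, that of the endothelial list 3.84 and that of the mesenchymal list 0.51. Fn1 and Vim lay within 1 cycle, at 0.71 and 0.51, and Pdgfra turned to -2.47. No mesenchymal assay was at least 1 cycle higher there.

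The 12 cells were not alike. E10.5-3, E10.5-26 and E10.5-30 carried all 4 endothelial assays with Cdh5 at 11.20, 11.71 and 11.11 and no Pdgfra. Each also had contractile readings: Tnnt2-1 at 6.73, Tnnt2-2 at 6.44 and Myh6-2 at 4.42 in E10.5-26, Myh6-1 at 4.35, Myh7-2 at 4.18 and Myl2 at 3.996 in E10.5-3, and Myh7-2 at 5.84 and Myl2 at 4.89 in E10.5-30. E10.5-8 had Cdh5 at 11.12, Pecam1 at 8.73 and Vwf at 8.19 but neither Flk-1 nor Pdgfra. Its contractile readings were Tnnt2-1 at 4.82, Tnnt2-2 at 6.24, Tnni3-1 at 4.71, Tnni3-2 at 5.54, Myh7-2 at 4.49 and Myl2 at 3.62. E10.5-54 had Cdh5 at 10.13 and Pecam1 at 8.31 and detected no contractile assay. These 5 were the cells with Cdh5 and without Pdgfra.

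E10.5-27 and E10.5-28 had Pdgfra at 8.58 and 5.77, Sm22A at 9.34 and 6.34 and no Cdh5, but E10.5-28 detected Pecam1, at 5.10. Both cells also had contractile readings, with Tnnt2-1 at 6.99 and 5.26, Tnnt2-2 at 6.15 and 4.69 and Myh7-2 at 4.15 and 4.43. In 4 cells both Cdh5 and Pdgfra were detected. E10.5-41 and E10.5-61 had Cdh5 at 10.11 and 10.77, with all 4 endothelial assays, together with Pdgfra at 8.26 and 7.93, whereas E10.5-9 and E10.5-10 had the higher reading in Pdgfra, 10.35 and 9.08. E10.5-34 had neither, with Sm22A at 9.001 and both Tnnt2 assays, the highest of the 12 at 7.76 and 7.13. E10.5-61 also had the one Hand1 and the one Isl1-2 reading among the 12 and Cnn1 at 8.27. Of the 9 cells with Cdh5, 4 also had a Tnnt2 reading. E10.5-9 detected 7 of the 10 cardiomyocyte assays, the most of the 12 cells, with Tnnt2-1 at 6.84 and Tnnt2-2 at 6.53. E10.5-10 detected 2 of them and E10.5-41 detected 1.

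**Figure D5:**
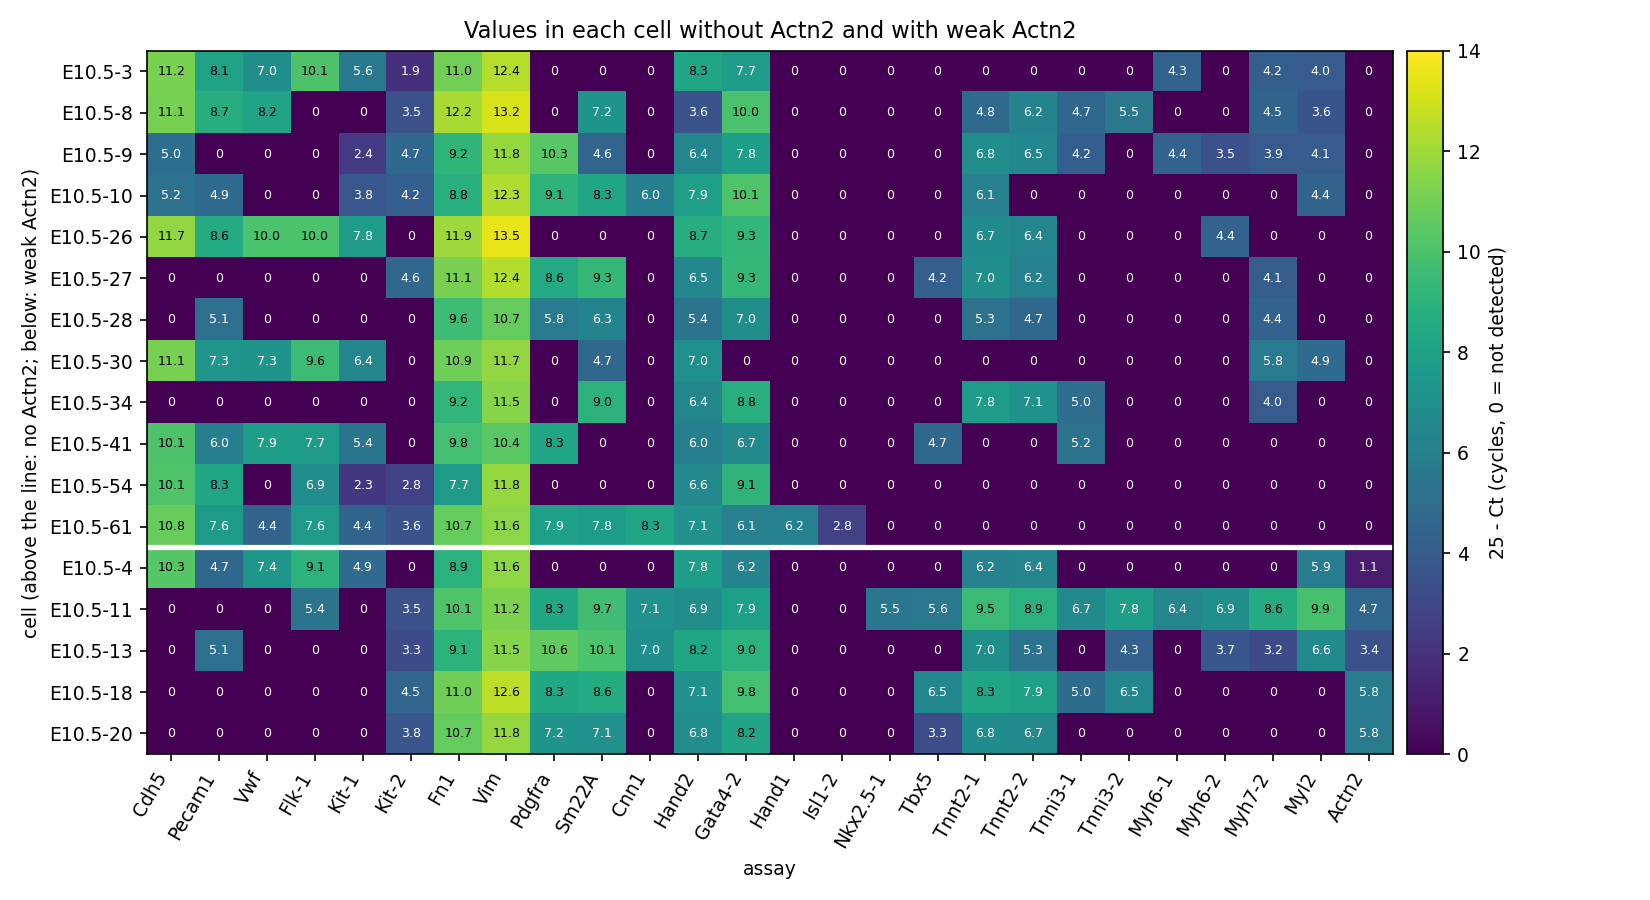
Values (25 minus Ct, cycles) of 26 assays in each of the 12 cells without Actn2 (above the white line) and the 5 cells with weak Actn2 (below it); 0 is not detected. Cdh5 above 10 cycles is seen in 7 of the 12 cells, Fn1 and Vim in all 17, and Nkx2.5-1 only in the weak cell E10.5-11.

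All 5 cells with weak Actn2 detected both Tnnt2 assays, at 5.27 to 9.53. Tnni3-2 was detected in 3 of 5. Cdh5 and Kit-1 were each detected in 1 of 5 and Pecam1 in 2, against 9, 8 and 9 of the 12 cells without Actn2. Kit-2, the other Kit assay, went the other way, detected in 4 of 5 against 7 of 12. At least 1 Kit assay was detected in 5 of 5 and 10 of 12. Fn1 (8.95 to 10.95) and Vim (11.23 to 12.59) lay in the range of the 12, Pdgfra was detected in 4 of 5 at 7.22 to 10.58, and Nkx2.5-1 in 1 of 5. E10.5-4, the cell just outside the limit, had all 4 endothelial assays and no Pdgfra. E10.5-11 came nearest to the muscle cells, with 9 of the 10 cardiomyocyte assays, Myl2 at 9.94 and Nkx2.5-1 at 5.52, and carried Pdgfra at 8.33. With the weak cells left out, 4 of the 41 assays (9.76%) did not overlap between the 12 cells without Actn2 and the 55 strong cells: both Tnnt2 assays, Tnni3-2 and Nkx2.5-1. Against all 60 cells with Actn2 none did (0.00%).

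Each cell was also set against reference cells of the series, 6 types of 5 cells each from embryoid bodies and embryos; the types are known here by their name codes only (EDC, FB, CM, CPC, SMC, ES). Over the 40 assays other than Actn2 and Actb, 6 of the 12 cells without Actn2 correlated best with the mean of the EDC cells (Pearson r of 0.71 to 0.84), 5 with FB (0.66 to 0.73) and 1, E10.5-61, with CPC (0.723, against 0.718 for EDC). None was closest to CM, where r ran from -0.35 to 0.22. All 55 strong cells were closest to CM, at 0.51 to 0.86, and of the 5 weak cells 3 were closest to FB, 1 to EDC and 1 to CM. By Spearman correlation or Euclidean distance only 1 weak cell was closest to FB, with 2 closest to SMC by the former and 2 to CPC by the latter. These are descriptions across assays, which are not independent. The FB cells are a limited match for the Pdgfra cells, since 0 of 5 detected Pdgfra while all 5 CPC cells did, at 8.16 ± 0.83.

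The same split was made in the earlier embryo cells of the series, 6 each at E7.5, E8.5 and E9.5. The table and the cell names give these stages, while the sample titles and source call the same cells late ES-derived cells from embryoid bodies, so their origin is not settled. The E10.5 cells of that table recur in the set described here, all 6 with strong Actn2, and were left out. Actn2 was not detected in 4 cells at E7.5, 2 at E8.5 and 0 at E9.5. Cdh5 was detected in 3 of the 4 and both of the 2, Pecam1 in the same numbers, and Flk-1 in all 6, at 9.57 to 10.95. Fn1 (8.30 to 10.003) and Vim (8.58 to 12.35) were detected in all 6, as at E10.5. Hand2 and Gata4-2 were detected in 2 and 3 of the 6, against 12 and 11 of the 12 cells at E10.5. Nkx2.5-1, at 0 in the 12, was detected in 3 of the 4 cells at E7.5 and in 0 of 2 at E8.5, and Pdgfra in 1 of the 6, at 4.84. Fn1, Vim, Flk-1 and Pdgfra were not particular to cells without Actn2 at these stages. Fn1 was detected in every earlier cell with Actn2 and Vim in all of them but E7.5-1, while Cdh5 was in none. Pdgfra was detected in every E8.5 cell with Actn2, at 4.47 to 9.46. Among the other earlier cells with Actn2 it was detected only in E7.5-3, at 7.48, and E9.5-1, at 4.83. Cell E7.5-3, with Actn2 at 4.28, had Flk-1 at 10.91 and Fn1 at 11.10. Neither E7.5-1 nor E7.5-3, the E7.5 cells with Actn2, detected Tnnt2.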

How the data were processed

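Single cells were sorted, lysed, reverse transcribed, pre-amplified with TaqMan assays and read on Fluidigm chips, per the labels' protocols. Ct values per assay and cell are as the authors deposited them; an assay without signal is listed at 25, as the values show. The sources used here give no Ct threshold, cell filter or reference-gene correction. Negative control columns, in the stage and reference tables, detected 0 assays.

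Columns were matched to samples through the sample numbers in the titles, and cells are named as in the tables. Expression was computed as 25 minus Ct, with means over all cells, SD between cells and differences of means; an assay counted as higher or lower at 1 cycle. Intervals are exact (Clopper-Pearson) 95% intervals. Precision is limited by the 12 cells without Actn2. Where a group has no detecting cell, the true difference may be larger than printed. The members and marker lists were chosen with earlier results of these data known. Named are all assays at least 1 cycle apart, those 50 points apart in detection, all list members, and Actb. Calponin 1, Calponin 2 and Myh11 of the stage table were read as Cnn1, Cnn2 and Myh11-1. Alternatives comprised other scales, limits, averages, cell filters and splits. On the scales relative to Actb or to the median detected assay, undetected readings were set to the lowest rescaled value of any assay and cell. The differences of means and the scale relative to Actb were checked on simulated data in which nearly every value was detected. That check covered neither the treatment of undetected readings nor the intervals. Python 3.11.15, pandas 2.3.3, scipy 1.17.1 and matplotlib 3.10.9 were used.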

Additional observations from a re-analysis of the deposited data

How the results depend on the processing

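List medians and counts of assays were recomputed under 9 planned settings, 6 chosen after the data were seen, and without each of the 12 cells in turn. The cardiomyocyte, mesenchymal, endothelial and smooth muscle medians kept their signs in all of these. Leaving out single cells gave 9 to 10 assays higher and 19 to 20 lower, and medians of -8.58 to -8.11 (cardiomyocyte), 2.51 to 3.39 (mesenchymal), 3.79 to 4.63 (endothelial) and -4.11 to -3.27 (smooth muscle). Relative to Actb the cardiomyocyte median was -11.83, the smooth muscle median -6.49 and Vim -0.33. Relative to the median detected assay 14 assays were higher. Over detecting cells alone 9 were lower, of 25 assays with at least 3 detecting cells in each group. Against the 6 cells with Actn2 that match in Actb, 5 assays were higher, the cardiomyocyte median was -4.65, the mesenchymal median 0.51, Actb -0.16 and Pdgfra -2.47. In the last 36 columns (3 cells against 33) the endothelial median was 6.89, Cdh5 10.34 and Flk-1 6.47; in the first 36 (9 against 27) the endothelial median was 3.63, the mesenchymal 2.13, Flk-1 1.10, Pdgfra 1.88 and Actb 1.88. After the planned filter on assays detected, which left 5 cells without Actn2 and 58 with it, Sox2 was 0.082, Pdgfra 6.05, Flk-1 1.67 and the mesenchymal median 4.65. Of the 12 cells, 6 were closest to EDC by each of 3 measures; FB took 5 by both correlations and 4 by Euclidean distance. The cause of these shifts was not tested. No paired analysis was possible because the labels name no animal or culture and the numbers only name cells. The 12 cells without Actn2 limit every share, and an assay at 0 near the detection limit may be a missed reading.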
